A study of Caenorhabditis elegans with 8 samples.

Results

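The 8 libraries of this series differ among themselves in a way that is not the difference of the 2 strains. Wild-type replicates 1 and 2 and atf-6 replicates 3 and 4 (set A) lay on one side, and wild-type replicates 3 and 4 and atf-6 replicates 1 and 2 (set B) on the other. The sets were chosen by expression values of these same libraries, so the difference between them is described here and not tested, and its size is no evidence for it. All 8 of the 8 libraries enter the contrast, 4 in each set and 2 of each strain in each set. Of 12375 genes with enough reads, 260 were called along it. A gene was called where the sets differed by at least 1.5-fold with strain in the model and the 4 set A values did not overlap the 4 set B values.

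Whole day 1 adult Caenorhabditis elegans were measured by poly(A) RNA-seq. The wild type was N2, the standard laboratory strain, and the other strain is labelled atf-6 with no allele named. ATF-6 is a membrane-anchored transcription factor of the endoplasmic reticulum (ER) that acts in the unfolded protein response. Both strains were grown at 20 °C on OP50-1 bacteria from synchronized first-stage larvae and collected after 72 h, each replicate being a pool of about 1000 worms. The labels call the replicates independent and give no date, batch or other trait that the 4 cultures of a set share. Depth ran from 12664222 to 21698298 estimated counts per library.

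A day 1 adult hermaphrodite is devoted to reproduction. Its intestine makes yolk proteins in bulk, its germline is filled with growing oocytes, and its epidermis maintains the collagen cuticle. Worms also carry large families of detoxification enzymes, nuclear hormone receptors and F-box proteins, many of them at low levels. Fatty acid desaturases and elongases build the polyunsaturated and branched-chain fats of worm membranes, and the ER adds sugars and lipid anchors to secreted and membrane proteins.

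Values below are CPM, counts scaled to a common library total. Set A is given as wild-type replicates 1 and 2 followed by atf-6 replicates 3 and 4, and set B as wild-type replicates 3 and 4 followed by atf-6 replicates 1 and 2. The log2 difference is set A minus set B. atf-6 itself had 10.8, 12.8, 14.7 and 14.1 CPM in set A and 13.2, 12.5, 16.05 and 15.1 CPM in set B. The sets overlapped (log2 difference -0.11), and every atf-6 library was above every wild-type library. A level of the whole transcript does not check the strain label, which names no allele.

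In whole worms, fewer cells of a type and less RNA per cell cannot be told apart. No marker gene of a tissue, stage or sex was called. The 5 intestinal markers summed to 45774 to 51752 CPM in set A and 53499.6 to 62053 CPM in set B, almost all of it from vit-2 and vit-6. The other 3 of these markers, ges-1, elt-2 and ifb-2, had log2 differences of 0.05, -0.01 and -0.02. Neuron marker sums (4 genes, most of it snb-1) were 127.01 to 140.36 CPM in set A and 140.52 to 163.65 CPM in set B, almost touching, and each of the 4 genes taken alone overlapped. The 3 genes listed as larval markers summed to 46.6 to 53.2 CPM in set A and 55.1 to 56.6 CPM in set B. Most of this sum was lin-28, known as a gene of early rather than late larvae, which overlapped alone, as did col-38. The third, mlt-10, a molting gene, did not overlap and had -0.46, while the list of 21 molting and apical matrix genes had 0 called, 13 positive and a median of 0.02. Marker sums of oocytes (2736 to 3239 and 3031 to 3231 CPM), epidermis, body muscle, pharynx, sperm, embryos and males overlapped between the sets. Sperm and embryo sums were low, at most 11.4 and 5.93 CPM. The part of these markers in the set difference was not tested.

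**Figure D1:**
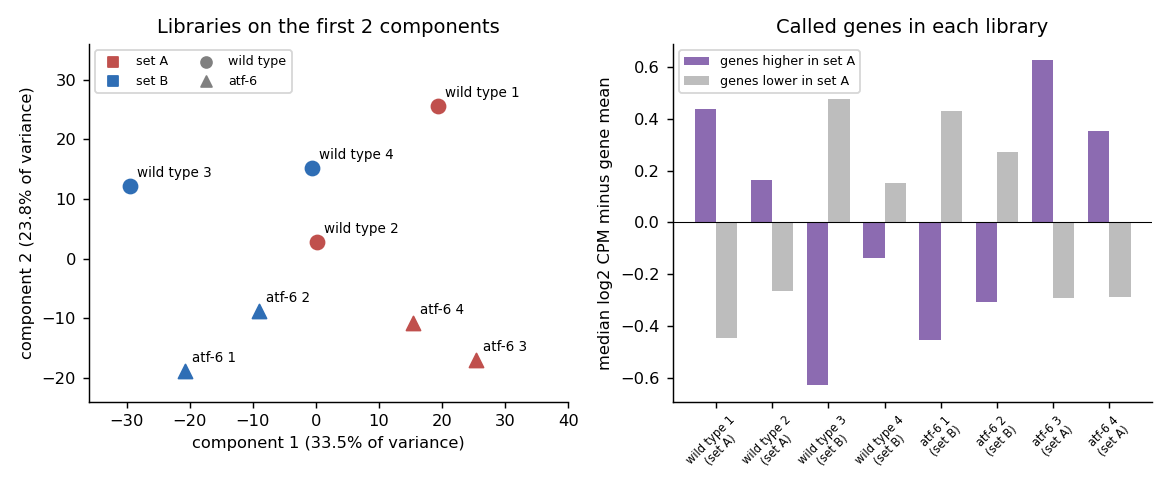
Left, the 8 libraries on the first 2 principal components of log2 CPM over 12375 genes (circles, wild type; triangles, atf-6; red, set A; blue, set B). Right, the median log2 CPM of the 230 genes higher (purple bars) and the 30 genes lower (grey bars) in set A, each gene relative to its mean over the 8 libraries. Wild-type replicates 2 and 4 have almost the same value on component 1, 0.13 and -0.70, while wild-type replicate 3 (-29.5) and atf-6 replicate 3 (25.4) lie at its ends.

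The libraries formed a graded series rather than 2 compact groups. The first principal component held 33.5% of the variance. The second, on which every wild-type library lay above every atf-6 library, held 23.8%. On the first component the set A libraries lay at 19.3, 0.13, 25.4 and 15.3, and those of set B at -29.5, -0.70, -20.8 and -9.10. Wild-type replicates 2 and 4 therefore had neighbouring values near 0 despite being in different sets. The 230 genes higher in set A gave the libraries the same order. The call itself put every set A library above every set B library, and these genes also enter the component. Their order is therefore no separate support for a graded series. The median of the 230 genes was 0.63 above the mean of the 8 libraries (log2 CPM) in atf-6 replicate 3 and -0.63 relative to it in wild-type replicate 3. In wild-type replicates 2 and 4 it was 0.16 and -0.14. Over the 500 genes of largest variance, the first component no longer parted the sets: set A libraries lay at -7.85 to 23.1 and set B libraries at -15.8 to 10.18.

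More genes passed the call on the high side of set A than on the low side. Of 12375 genes, 230 were called higher in set A (1.86%) and 30 were called lower (0.242%). The rule used this contrast, so nothing is read from these shares. Non-overlap at any fold was almost balanced, with 1042 genes above (8.42%) and 972 below (7.85%). A fold of at least 2 was reached by 52 higher and 2 lower genes. The median log2 difference of all genes was 0.00. The members just inside the fold were clc-1 and ref-2 on the high side, both with a log2 difference of 0.59, and hpo-36 and ZC416.2 on the low side, both with -0.59. Just outside lay B0001.7 and F17C8.3, both at 0.58, and lido-10 and F38E11.6, both at -0.58.

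The counts moved with single libraries. Without wild-type replicate 2 they were 475 higher and 84 lower, and without wild-type replicate 4 they were 482 and 94. With fewer libraries, overlap is rarer by construction. The lower count was 56 without wild-type replicate 1, 48 without wild-type replicate 3, 55 without atf-6 replicate 2 or 4, and 53 without atf-6 replicate 3. Of the 260 genes, 143 kept the call in all 8 fits without 1 library. Without both libraries at the ends of the first component, an alternative chosen after seeing the data, 155 genes were called higher and 57 lower.

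All 230 higher genes were also higher in set A within each strain taken alone, and all 30 lower genes were lower, which non-overlap itself requires. The sizes were not equal. The median log2 ratio of the higher genes was 0.66 in wild type and 0.88 in atf-6, and 179 of the 230 had the larger ratio in atf-6. For the lower genes the medians were -0.63 and -0.70. Over all 12375 genes, 74.8% had the same sign in both strains, and the ratios of the strains had a Pearson r of 0.467 and a Spearman rho of 0.566 across genes. Genes are not independent replicates, and the orientation of the sets was chosen on these values.

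**Figure D2:**
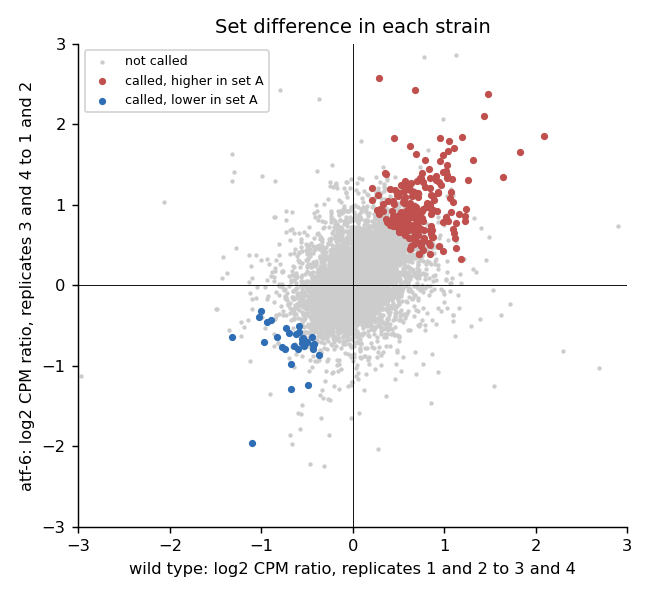
Each point is a gene, plotted by its log2 ratio of mean CPM in the set A to the set B libraries within wild type (horizontal) and within atf-6 (vertical), with the 230 called higher genes and the 30 called lower genes in colour. 3 genes fall outside the plotted range of 3 on either side. The called higher genes sit farther out on the atf-6 axis, with medians of 0.66 in wild type and 0.88 in atf-6.

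Whether the set difference was larger in one strain than in the other was tested gene by gene, because this interaction was not used to form the sets. No gene passed edgeR's quasi-likelihood test of the strain by set interaction (0 of 12375, 0%, lowest adjusted p = 1.00). Before adjustment, 301 genes (2.43%) had a p under 0.05, fewer than that threshold would pass by chance alone. With 2 libraries of each strain in each set, a difference between the strains could be missed. DESeq2 called 2 genes, and edgeR without a filter on low counts called 59. The smallest unadjusted p belonged to ugt-63, a UDP-glucuronosyltransferase gene that was itself called higher in set A. It had 22.7, 20.3, 29.5 and 26.7 CPM in set A and 19.6, 17.6, 12.8 and 14.05 CPM in set B. In wild type the sets were close, with a log2 ratio of 0.21, and in atf-6 they stood apart with 1.06. mtm-10, a myotubularin-family gene, had ratios of 0.39 and -0.26. The ribosomal RNA gene rrn-3.1 had -0.05 in wild type and -1.25 in atf-6. The interaction is the same contrast as replicates 1 and 2 against 3 and 4 over both strains.

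The largest differences on the high side, among genes averaging 1 or more in log2 CPM, were in short transcripts, most with only a sequence name. C08F11.12 (chromosome IV, 13651014 to 13651511, minus strand, build WBcel235) had 15.3, 6.83, 30.2 and 14.9 CPM in set A and 2.93, 4.88, 5.52 and 2.97 CPM in set B. atf-6 replicate 3 was far above the rest, and the sets did not overlap (log2 difference 1.95). F31E3.6 (chromosome III, 6982081 to 6983062) had 13.1, 8.802, 11.8 and 11.04 CPM in set A and 1.27, 6.68, 1.55 and 3.61 CPM in set B, a log2 difference of 1.7. F18E3.11 (chromosome V, 7413482 to 7413754) had 13.8, 10.12, 23.6 and 16.01 CPM in set A and 2.74, 7.65, 3.75 and 7.11 CPM in set B, a log2 difference of 1.5. In both, wild-type replicate 3 was the lowest of all libraries and wild-type replicate 4 the highest of set B.

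ceh-63, a homeobox gene, headed the list with a log2 difference of 1.95, but few reads lie behind it. It had 4.86, 3.01, 4.64 and 3.42 CPM in set A and 1.97, 0.0921, 2.36 and 0.0583 CPM in set B. The plain sums of its reads in the transcript files were 4 to 11 per library, too few for the count filter. Its transcript C02F12.10b, of 141 bases and an effective length of 5 bases, was credited with 0 to 2.96 reads, and the deposited gene table gives the gene 1 to 97 counts. In the 2 libraries where that transcript had 0 reads the table holds 1 and 2 counts. ceh-63 also overlaps tag-52 on the same strand. elmd-1, which encodes an ELMO-domain protein, depended on the kind of count too: its log2 difference was 1.25 in the deposited gene table and 0.23 in plain sums of the transcript reads.

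The rest of the 12 largest were F52E1.14, F58G6.3, F30A10.14 and Y37B11A.3, the ncRNA gene C28H8.14 and the snoRNA genes ZK858.10 and R144.18, with log2 differences of 1.27 to 1.47. F52E1.14 was the most abundant of them, with 49.3, 32.1, 74.3 and 48.3 CPM in set A and 15.5, 25.5, 23.04 and 16.8 CPM in set B. ZK858.10 and R144.18 lie inside gld-4 and larp-1 on the same strand, and Y37B11A.3 overlaps rev-3. F52E1.14 overlaps hsp-17 on the other strand. The host and partner genes gld-4, larp-1, rev-3 and hsp-17 had 0.06, -0.06, 0.13 and -0.05, none of them called. How the authors' counting divided reads between such neighbours was not tested.

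**Figure D3:**
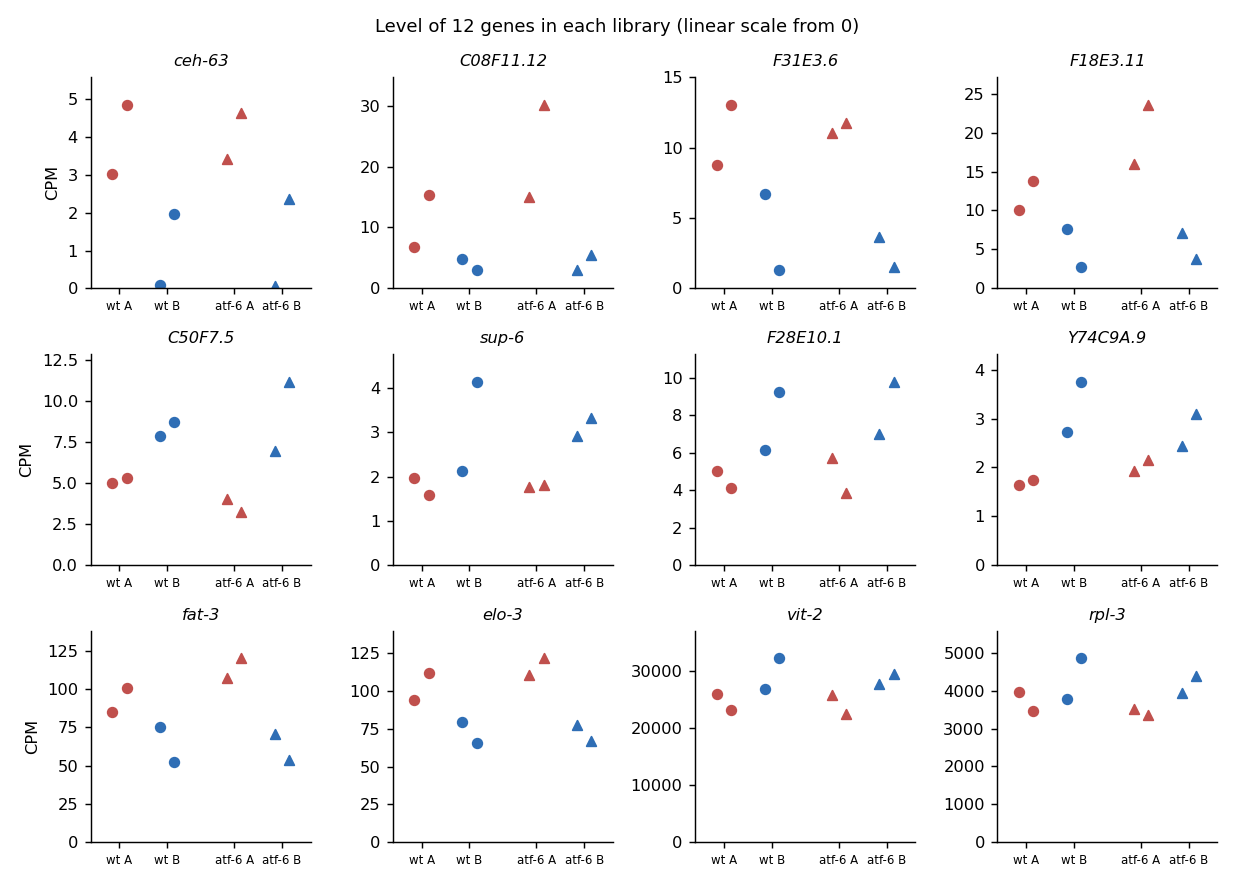
CPM in each library on a linear scale from 0 for the 4 genes with the largest higher values in set A (top row), the 4 with the largest lower values (middle row), and fat-3, elo-3, vit-2 and rpl-3 (bottom row), with red for set A and blue for set B, circles for wild type (wt) and triangles for atf-6. The sets do not overlap in the top and middle rows, which is how those genes were chosen, and the difference in vit-2 and rpl-3 is small against their level.

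Lower genes were few and mostly rare, 20 of the 30 averaging under 1 in log2 CPM. Above that level there were 10, with log2 differences from -0.98 to -0.59. C50F7.5 lies on chromosome IV from 7726719 to 7727639, and its values were 5.31, 5.04, 3.25 and 4.06 CPM in set A and 8.73, 7.88, 11.2 and 6.94 CPM in set B. The sets stood farther apart in atf-6 (-1.29) than in wild type (-0.67), a difference that the interaction test did not call. sup-6, annotated as a small nuclear RNA gene (chromosome II, 12944803 to 12944967) inside F58G1.7, had 1.59, 1.98, 1.82 and 1.76 CPM in set A and 4.14, 2.12, 3.31 and 2.91 CPM in set B. Its wild-type replicate 4 lay just above the highest set A value, and the log2 difference of -0.77 became -0.57 without wild-type replicate 3, under the fold.

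F28E10.1 lies on chromosome IV from 4568841 to 4590297, and its values were 4.1, 5.04, 3.88 and 5.71 CPM in set A and 9.24, 6.13, 9.79 and 6.99 CPM in set B. Its log2 difference of -0.76 became -0.27 in plain sums of the transcript reads, where it was not called. The pseudogene Y74C9A.9, inside rcor-1, had 1.75, 1.65, 2.153 and 1.92 CPM in set A and 3.76, 2.72, 3.09 and 2.45 CPM in set B (-0.67, and -0.53 without wild-type replicate 3). dod-3, named for its place downstream of the DAF-16 longevity factor, had -0.63, and -0.54 and -0.48 without atf-6 replicate 1 and 3. Y41G9A.10, Y39G10AL.1, F53B2.8, B0250.3 and Y20F4.4 had -0.64 to -0.59, and each of them was under the fold in at least 1 fit without 1 library.

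Fatty acid desaturase and elongase genes were mostly higher in set A. Of 14 tested desaturase and elongase genes, 2 were called higher and 0 lower in set A, 7 lay above set B without overlap, 12 had a positive log2 difference, and the median was 0.26. Of all tested genes, 1.86% were called higher and 8.42% lay above without overlap. fat-3, the delta-6 desaturase of polyunsaturated fat synthesis, had 100.6, 85.01, 119.9 and 107 CPM in set A and 52.2, 75.2, 53.7 and 70.5 CPM in set B. Every set A library was above every set B library (log2 difference 0.70). In plain sums of the transcript reads the difference was 0.48, under the fold. elo-3, a fatty acid elongase gene, had 112.2, 94.1, 122 and 111 CPM in set A and 65.5, 79.3, 66.7 and 77.9 CPM in set B (0.59). It was so near the fold that it lost its call, at 0.53 to 0.58, under upper-quartile scaling and without wild-type replicate 1 or 3 or atf-6 replicate 1 or 3.

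The other non-overlapping members, named after their values were seen, were elo-5 and elo-6, which act in branched-chain fat synthesis, the delta-5 desaturase fat-4, the elongase elo-1 of polyunsaturated fats, and elo-2. Their log2 differences were 0.52, 0.41, 0.37, 0.33 and 0.18. fat-1 and fat-2 (0.05 and -0.08) and the delta-9 desaturases fat-5, fat-6 and fat-7 (-0.05, 0.13 and 0.13) overlapped. In the list of fatty acid oxidation and lipase genes, 3 of 93 were called higher and 0 lower, beside 1.86% of all tested genes called higher. The median was -0.01, and it was above 0 without atf-6 replicate 2 or 3 (0.02 and 0.01). The called genes were the short-chain dehydrogenase genes dhs-4 and dhs-29 and the lipase gene lipl-7, with log2 differences of 1.0, 0.84 and 0.64. lipl-7 was under the fold, at 0.52 to 0.56, without wild-type replicate 3 or atf-6 replicate 1 or 3.

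Among detoxification families, the per-library medians, in log2 relative to their mean, narrowly parted the sets for the ugt genes. The lowest set A value was -0.02 and the highest set B value -0.05. For cytochrome P450 genes they narrowly overlapped (0.05 and 0.06), and for glutathione S-transferase genes they overlapped (-0.04 and 0.03). Of 49 UDP-glucuronosyltransferase (ugt) genes, which attach sugars to small lipophilic molecules, 4 were called higher and 1 lower. The shares of all tested genes called were 1.86% higher and 0.242% lower. Of the ugt genes, 11 lay above without overlap and 2 below, beside 8.42% and 7.85% of all tested genes. A positive difference was found in 40 ugt genes, and the median of all 49 was 0.21. ugt-21 had 3.95, 4.095, 4.02 and 3.895 CPM in set A and 2.55, 3.09, 1.62 and 1.92 CPM in set B (0.80). ugt-2 had 4.86, 3.06, 5.26 and 4.43 CPM in set A and 2.74, 2.35, 2.502 and 2.51 CPM in set B (0.78). ugt-44 and ugt-63 had 0.67 and 0.63, and ugt-66 went the other way with -0.67. Without atf-6 replicate 1 or 3 ugt-44 and ugt-63 were under the fold (0.51 to 0.55), as was ugt-63 without atf-6 replicate 2 (0.55) and ugt-66 without wild-type replicate 1 (-0.42). Of 45 cytochrome P450 genes, 1 was called higher (cyp-33E1, 0.77) and 0 lower, beside 1.86% of all genes called higher. Without overlap, 7 of the 45 lay above and 1 below. The median of the 45 was 0.12, with 30 positive. Of 31 glutathione S-transferase genes, 0 were called, with 16 positive and a median of 0.02, and the most abundant, gst-1 and gst-7, had -0.19 and -0.17.

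Nuclear hormone receptors, ligand-regulated transcription factors that form one of the largest families of this worm, had 3 of 151 called higher and 0 lower, a share near the 1.86% of all genes. 97 were positive, the median was 0.10, and the per-library medians overlapped between the sets. nhr-101 had 7.21, 5.46, 9.28 and 7.097 CPM in set A and 3.19, 3.73, 4.64 and 4.14 CPM in set B (0.88). nhr-115 and nhr-69 had 0.93 and 0.64. nhr-115 was not called under RLE or upper-quartile scaling or in DESeq2, at log2 differences of 0.92 to 0.94, and nhr-69 was under the fold without wild-type replicate 3 (0.54) or atf-6 replicate 3 (0.57). F-box A genes, a large family of likely ubiquitin-ligase adaptors, had 2 of 59 called higher (fbxa-219 and fbxa-210, 0.71 and 0.61) and 0 lower. Of the 59, 44 were positive, and the median was 0.20. The per-library medians of these genes overlapped between the sets. fbxa-210 was under the fold, at 0.50 to 0.54, without wild-type replicate 3 or atf-6 replicate 1 or 3. fbxa-219 was at 0.57 without wild-type replicate 4, and was too low for the count filter without wild-type replicate 2 or atf-6 replicate 4 and in plain sums.

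The pals genes, markers of the intracellular pathogen response, had 2 of 11 tested called higher and 0 lower, beside 1.86% of all tested genes called higher. All 11 pals genes were positive, with a median of 0.32. That median was 0.03 in wild type and 0.52 in atf-6. pals-24 had 3.26, 2.54, 3.83 and 3.63 CPM in set A and 1.401, 2.396, 1.77 and 2.16 CPM in set B (0.74). pals-20 was close to 0, with 0.607, 0.612, 0.813 and 0.694 CPM in set A and 0.319, 0.369, 0 and 0.117 CPM in set B. C-type lectins, many of them linked to immunity, had 2 of 76 called higher (clec-165, 1.17, and clec-218, 0.75) and 0 lower, with a median of 0.06. Antimicrobial and lysozyme genes had 0 of 53 called and a median of -0.01, and ilys-5 and irg-7 had -0.12 and 0.00.

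A further group, named after its values were seen, acts in ER glycosylation and in the making of lipid anchors and sugar donors. dad-1, a subunit of the oligosaccharyltransferase that adds N-linked sugars, had 114, 82.04, 129 and 111 CPM in set A and 44.7, 76.9, 57.996 and 64.2 CPM in set B, a log2 difference of 0.82. pigu-1 and pgap-2, named for roles in glycosylphosphatidylinositol anchor attachment and remodelling, had 0.90 and 0.66. dpm-3, of dolichol-phosphate mannose synthesis, had 0.74. The nucleotide-sugar transporter genes srf-3, sqv-7 and nstp-2 had 0.78, 0.79 and 0.61. All 7 were called, having been picked for it. Without wild-type replicate 3 or atf-6 replicate 3, pgap-2 and nstp-2 were under the fold (0.50 to 0.56), as was nstp-2 without atf-6 replicate 1 (0.53). As a whole class, the 13 algn genes of N-glycan assembly had 0 called, 9 were positive, and the median was 0.25. Without overlap, 4 of the 13 lay above and 1 below, beside 8.42% and 7.85% of all tested genes. Among the algn genes, algn-12 had 0.54 and algn-3 had -0.18. In the list of ER chaperones and disulfide isomerases 0 of 17 genes were called and the median was -0.12, and in that of unfolded protein response sensors and factors 0 of 8 were called, with a median of -0.01.

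Single called members stood in lists with a median near 0. rrf-1, an RNA-dependent RNA polymerase of somatic small RNA amplification, had 56.4, 43.2, 61.5 and 46.6 CPM in set A and 26.2, 36.2, 29.9 and 37.9 CPM in set B (0.66). It was under the fold in plain sums (0.39) and without wild-type replicate 1 or 3 or atf-6 replicate 3 (0.58). Its list of 25 small RNA genes had a median of -0.01, above 0 without wild-type replicate 1 or 3 or atf-6 replicate 4 (0.01 to 0.05). perm-5, required for the eggshell permeability barrier, had 0.73 in a list of 16 eggshell genes with a median of -0.09. The sodium-calcium exchanger gene ncx-6 had 1.14 among 24 calcium genes with a median of -0.02. atg-16.2 of autophagosome formation, rhy-1 of the hypoxia pathway and the mitochondrial ribosomal gene mrpl-23 had 0.66, 0.64 and 0.66. These 3 were under the fold (0.50 to 0.56) without atf-6 replicate 3 (atg-16.2, mrpl-23), wild-type replicate 3 (atg-16.2, rhy-1) or atf-6 replicate 1 (rhy-1). nlp-58, a neuropeptide precursor gene, had 0.65, 0.55 without wild-type replicate 2, and 0.57 without atf-6 replicate 1. cat-1, the vesicular monoamine transporter of neurons, had 0.683, 0.847, 0.718 and 0.694 CPM in set A and 1.27, 1.06, 1.25 and 1.11 CPM in set B (-0.65), in a list of 23 synaptic and transmitter genes with a median of -0.09.

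Abundant housekeeping and structural genes lay slightly on the low side of set A, by less than the fold used for calls. All 6 vitellogenin genes, which encode yolk proteins, were below set B without overlap, with a median log2 difference of -0.18 and 0 called. The share of all tested genes below without overlap was 7.85%. vit-2 had 23289, 26115, 22509 and 25880.0 CPM in set A and 32276, 26969.7, 29550.4 and 27778 CPM in set B (-0.25). Wild-type replicate 3 was the highest and atf-6 replicate 3 the lowest. Cytosolic ribosomal protein genes had medians of -0.24 (46 rpl genes) and -0.23 (31 rps genes), with 0 called. Their libraries overlapped: the rpl median was 0.33 above its mean in wild-type replicate 3, 0.04 above it in wild-type replicate 2 and at -0.04 in wild-type replicate 4. rpl-3 had 3466, 3974, 3351 and 3529 CPM in set A and 4853, 3774, 4401 and 3939.9 CPM in set B (-0.25).

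Nuclear-encoded respiratory chain genes (66 tested), citric acid and glyoxylate cycle genes (22) and glycolysis and gluconeogenesis genes (21) had medians of -0.17, -0.18 and -0.19, with 0 called in each. Muscle sarcomere genes had 0 of 39 called and a median of -0.18. unc-54, the main myosin heavy chain of body muscle, had 1706, 2084, 1889 and 2070.0 CPM in set A and 2592, 1992, 2558 and 2260.4 CPM in set B (-0.28), with overlap. The type IV collagen genes let-2 and emb-9 of basement membranes had -0.34 and -0.28, in a list of 14 with 0 called and a median of -0.06. Cytosolic chaperones had 0 of 20 called and a median of -0.12, and hsp-1 and hsp-90 among them had -0.26 and -0.17.

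Histone and cuticle collagen genes were mostly lower in set A. Of 46 histone genes, 1 was called higher (hil-8, 0.81), 1 lower (his-3, -0.80) and 4 were positive, with a median of -0.28. The shares of all tested genes called were 1.86% higher and 0.242% lower. hil-8 was under the fold without wild-type replicate 3 (0.56). Of 100 tested col genes 0 were called higher and 2 lower (col-2, -0.96, and col-185, -0.61), 15 were positive, and the median was -0.23. col-185 was under the fold, at -0.58 to -0.49, without wild-type replicate 1 or 3 or atf-6 replicate 3. The list medians overlapped between the sets. The col median, relative to its mean, was lowest in wild-type replicate 1 (-0.50), a set A library, and highest in atf-6 replicate 1 (0.39), a set B library. The 14 shape-gene collagens outside the furrow group had a median of -0.39 with 0 called. dpy-17 among them had 5.92, 7.15, 8.71 and 7.47 CPM in set A and 10.4, 8.62, 11.6 and 11.7 CPM in set B (-0.52), with overlap.

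No gene was called in the lists of germline, sperm and early embryo genes that follow. The eggshell list, described above, had 1 gene called higher, perm-5. Oocyte and germline RNA-binding genes had 0 of 28 called and a median of -0.11, meiotic chromosome genes 0 of 27 and 0.00, and replication and cell cycle genes 0 of 26 and -0.03. Major sperm protein genes had 0 of 28 called and a median of -0.18, whose sign turned without atf-6 replicate 1 (0.03). Early embryo lineage factors had 0 of 12 tested genes called and a median of 0.01. The class of sdz genes, only some of which are in that list, had 2 of 16 called higher and a median of 0.36. Of all tested genes, 1.86% were called higher.

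Over all 61 lists, 27 of 1811 tested genes were called higher (1.49%) and 6 lower (0.331%), beside 1.86% and 0.242% of all genes. Called members were in 19 lists, and 14 lists had a positive median. Among 154 gene classes with at least 8 tested members, grouped by the prefix of the gene name, 66 had a positive median. The highest medians were in sdz (0.36), pals (0.32), npr, which are neuropeptide receptors (0.30), tsp, tetraspanins (0.30), and aat, amino acid transporters (0.28). Per-library medians parted the sets for pals and tsp and overlapped between them for sdz, npr and aat. The lowest were in his (-0.30), lido (-0.25), rpl, rps and col. The npr genes had 2 of 23 called higher (npr-14 and npr-10, 0.80 and 0.79), with medians of 0.06 in wild type and 0.38 in atf-6. npr-14 was under the fold without wild-type replicate 3 (0.54). In the aat genes the medians were 0.38 in wild type and 0.22 in atf-6, with 2 of 9 called higher (aat-2 and aat-8, 0.94 and 0.70). aat-8 was under the fold without atf-6 replicate 1 (0.38). The 10 trpp genes of the vesicle-tethering TRAPP complex and the 13 pgp genes of P-glycoprotein exporters had medians of 0.23 and 0.24 with 0 called. In both classes the per-library medians overlapped between the sets.

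**Figure D4:**
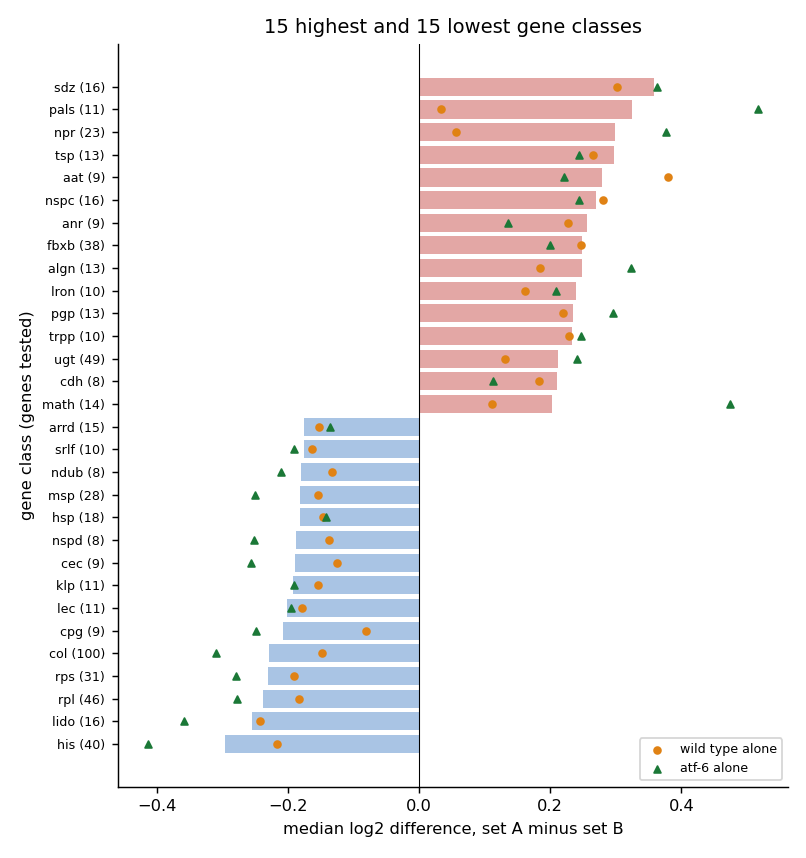
Median log2 difference (set A minus set B) of the 15 highest and 15 lowest of 154 gene classes, with the number of genes tested in brackets (bars), and the median within wild type (orange circles) and within atf-6 (green triangles). The bars run from 0.36 for sdz to -0.30 for his, and for pals the 2 strains are 0.03 and 0.52.

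Level and difference went together across genes. In the lowest decile of genes by mean log2 CPM the median log2 difference was 0.10, in decile 5 it was 0.02, and in the highest decile -0.12. The share called higher was 3.55% in the lowest decile and 0.0808% in the highest, where the 1 called gene was ule-4. ule-4, named after its value was seen, had 292, 229, 302 and 270.1 CPM in set A and 135, 212, 157 and 172 CPM in set B (0.69). Called higher genes had a median of 1.77 in mean log2 CPM, beside 4.03 for all tested genes, and 83 of the 230 were under 1. Those that reached 5 or more were 19, among them dad-1, fat-3, elo-3, perm-5 and rrf-1.

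**Figure D5:**
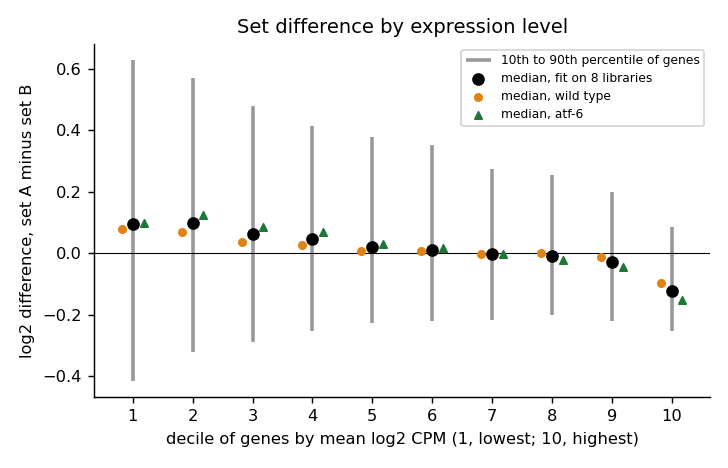
Median log2 difference (set A minus set B) of all 12375 tested genes in deciles by mean log2 CPM, fitted over the 8 libraries (black) and within wild type (orange) and atf-6 (green), with grey bars from the 10th to the 90th percentile of genes. The median goes from 0.10 in the lowest decile to -0.12 in the highest.

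The make-up of the libraries differed between the sets on average, with overlap in each measure given here. The 100 most abundant genes of a library took 27.6%, 29.5%, 27.6% and 28.6% of its counts in set A and 32.0%, 29.3%, 31.5% and 30.2% in set B, so wild-type replicates 2 and 4 were again alike. The 7 rRNA genes tested had a median log2 difference of -0.82. Their sum was 12281, 14641, 8938 and 6599 CPM in set A and 14843, 12897, 19836 and 15293 CPM in set B. In wild type that sum overlapped between the sets. Leaving out rRNA and mitochondrially encoded genes, an alternative chosen after seeing the data, gave 230 higher and 31 lower genes. The median absolute log2 difference between a library's deposited counts and its own transcript reads also varied. It was 0.0109, 0.0099, 0.0247 and 0.0046 in set A and 0.0444, 0.0102, 0.0291 and 0.0166 in set B, with overlap. In each set it was largest in the library at the end of the first component, wild-type replicate 3 or atf-6 replicate 3. The part of abundance, composition or this count difference in the set difference was not tested.

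The called higher genes were also shorter and more often without a name. Their median transcript length was 895 bases beside 1285 for all tested genes, and 54.8% had only a sequence name beside 40.5%. Of the shortest quintile of genes 3.29% were called higher, and of the longest 0.366%. An overlapping gene on the same strand was annotated for 10.9% of them and for 6.65% of all, and a gene upstream on their strand within 1000 bases for 36.1% and 29.6%. Chromosome X held 10.4% of them and 14.3% of all tested genes, and chromosome IV 20.9% and 16.7%. Protein-coding genes made up 93.9% and 95.2%. Among the 30 lower genes the share was 66.7%, the others being 4 pseudogenes, 3 ncRNA genes, 2 snRNA genes and 1 snoRNA gene.

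Isoform use varied along the same contrast. Of 3981 genes with at least 2 transcripts and a TPM (transcript abundance scaled to the library total) of at least 1 in each library, 153 (3.84%) had a transcript whose share of the gene's TPM differed by at least 0.15 between the set means without overlap of the 8 values. Of the 153, 5 were also called by level: elmd-1, rrf-1, srf-3, F28E10.1 and K08D8.6. Of all tested genes, 1.86% were called higher and 0.242% lower, so nothing is read from these 5. The largest, named after its values were seen, was in asd-1, a splicing factor gene of the RBFOX family. Transcript R74.5c held 0.029, 0.222, 0.208 and 0.023 of its TPM in set A and 0.989, 0.60, 0.967 and 0.73 in set B. Set A libraries used R74.5a instead, at 0.734 to 0.869. Wild-type replicate 4 had the lowest R74.5c share of set B. The level of the whole gene was nearly the same in both sets (log2 difference -0.11). Shares are the quantifier's division of reads between overlapping transcripts, which has its own error.

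With the set in the model, the strain comparison itself called more genes. edgeR's quasi-likelihood test of atf-6 against wild type called 163 of 12375 genes with the set as a covariate (1.32%; 137 higher and 26 lower in atf-6) and 101 without it (0.816%; 88 and 13), of which 99 were shared. crt-1, which encodes the ER calcium-binding chaperone calreticulin, had an edgeR adjusted p of 0.0681 without the set and 0.00368 with it, at a log2 fold change of -0.60 in both. It had 873, 958, 559 and 599 CPM in set A and 1203, 942, 765 and 704 CPM in set B, a set log2 difference of -0.29 with overlap. pud-1.1 went from an adjusted p of 0.0986 to 0.0141 (edgeR, log2 fold change -0.54). The sets were chosen on these libraries, so p-values with the set can be too small, as can those of the interaction. The count with the set was 66 without wild-type replicate 1, 76 without atf-6 replicate 1, 68 without atf-6 replicate 3, 40 without atf-6 replicate 4 and 193 without wild-type replicate 4.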

How the data were processed

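Estimated counts per gene for 46093 genes in 8 libraries were deposited by the authors as whole numbers, close to transcript abundances rescaled by length and library total. A second deposited table holds normalized signal, the same counts scaled by a factor for each library, and served as a check. Per the file headers, transcript files give estimated counts and TPM for 58105 transcripts, of which 57835 were matched to genes. Salmon 0.9.1, STAR 2.5.3a, DESeq2 1.19.51 and WBcel235 appear in the submitters' processing notes, without roles. Use of strand in counting is not given in those notes. Symbols came from a gene name table, and positions from an annotation of WBcel235.

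Counts were fitted with edgeR 4.0.16 in R 4.3.3 (filterByExpr, TMM, robust quasi-likelihood, Benjamini-Hochberg adjustment, threshold 0.05) with strain and set as terms. Within-strain ratios use mean CPM plus 0.1, and per-library medians of lists use log2(CPM + 0.5). Alternatives were RLE and upper-quartile scaling, other filters, DESeq2 1.42.0 on the same genes, limma-voom (limma 3.58.1), plain sums of transcript reads, each library left out, a replicate block, a fold of at least 2 and no strain term. The models were tested on simulated data. The sets, the 61 gene lists and the naming rule were chosen with earlier results of these data known. The rule names atf-6, the 12 largest differences in each direction among genes averaging 1 or more in log2 CPM (10 lower genes reached it), up to 4 called members or the 2 most abundant members of each list, the genes nearest the fold, and the 10 smallest interaction p-values. Gene classes and other genes were chosen after their values were seen.

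Any 2 libraries differed by more than counting noise (chi-square per degree of freedom of at least 3.75). Replicates are called independent in the labels, and p-values of the strain comparison without the set measure the spread between them. With the set in the model, the interaction included, p-values measure only the spread left after the set is fitted. Promoter motifs and sequences were not analysed here.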

Additional observations from a re-analysis of the deposited data

Results flagged for a closer look

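In 6 cases 1 of the 4 libraries of a strain stood far from the other 3, its gap being past Dixon's critical value for 4 samples. There were 222 such comparisons, and chance marks about 1 in 20. snb-1, the synaptobrevin gene among the neuron markers, was at 138.74 CPM in wild-type replicate 3 and at 112.4 to 113.05 CPM in the other wild-type libraries. The median of the npr genes, in log2 relative to its mean over the 8 libraries, was -0.079 in wild-type replicate 3 and 0.033 to 0.043 in the others. nhr-115 was at 0.691 CPM in wild-type replicate 4 and at 1.21 to 1.27 CPM in the other wild-type libraries, so its wild-type difference between the sets rests on that library. ZC416.2 was at 0.911 CPM in wild-type replicate 1 and at 1.69 to 1.84 CPM in the others. In atf-6 replicate 1, aat-8 was at 0.0736 CPM and npr-14 at 0.515 CPM, below 0.641 to 0.747 and 0.816 to 0.861 CPM in the other atf-6 libraries.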

How the results depend on the processing

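The 260 calls (230 higher, 30 lower) became 469 (389 and 80) with no filter on low counts and 54 (52 and 2) at a fold of at least 2. Leaving out 1 library gave 238 to 576 calls, 185 to 482 higher and 40 to 94 lower, and without both libraries at the ends of the first component 57 were lower. RLE, upper-quartile scaling, DESeq2, limma-voom, a filter of 10 counts in 4 libraries and no strain term gave 252 to 270. Plain sums of transcript reads gave 345, of which 234 were among the 260, and 1 of the 260 changed sign. At the 1.5-fold threshold, 95 higher and 9 lower genes kept the call in every alternative fit, those without 1 library or the end libraries included. The interaction gave 59 genes with no filter, 2 with DESeq2, 3 without the end libraries and 0 to 1 without 1 library. The strain comparison with the set gave 499 genes with no filter, 99 without the end libraries, 23 with a replicate block and 40 to 193 without 1 library. Deviations of same-numbered libraries had correlations of -0.385, -0.0446, -0.407 and 0.0430 (replicates 1 to 4). Of 8 libraries, 0 correlated best with its own number. Same-numbered libraries always lie in opposite sets, and the sets were chosen on these values. The correlations therefore cannot decide whether the replicate numbers pair the cultures. With the replicate block 267 genes were called along the sets. The interaction could not be fitted with that block. Transcript shares passed in 59 genes at a difference of at least 0.25, against 153. Among named genes no called value changed sign in any alternative. Of 588 list medians under alternatives, 13 moved by the spread between libraries or more. The cause of these shifts was not tested. Depth limits the rare genes: 103 of the 260 had a mean log2 CPM under 1.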
